A study of Homo sapiens with 18 samples.

Results

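Expression of 9 inflammatory genes, IL1A, IL1B, IL1RN, CXCL1, CXCL2, CXCL3, CXCL5, LCN2 and IL6, was followed across 6 ovarian cancer cell lines. The genes were selected on measured values, as inflammatory genes that were switched on in the PEA2 line, and they are 9 of the 12853 genes listed in the RNA-seq table. Their difference between PEA1 and PEA2 is therefore given as a description with no test, whereas the remaining pairs of lines were tested. RNA was measured in platinum-sensitive lines and their platinum-resistant counterparts, in 3 pairs with 3 libraries per line. A2780 is a sensitive line, labelled as endometrial or ovarian, and CP70 is its derivative made resistant to platinum in culture. PEO1 and PEO4 came from 1 patient with high-grade serous ovarian cancer who had received platinum, the former while the disease still responded and the latter once it no longer did. PEA1 and PEA2 came from the ascites of a patient with the same disease, taken before any platinum and again at a resistant relapse. All lines were grown in the same medium and none is described as treated with a drug for these libraries. Each line is a single culture model, so a difference within a pair is a difference between lines of that pair. Nothing in the labels says that the 3 libraries of a line came from separate cultures, so p-values measure the spread between these libraries.

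IL1A and IL1B encode the agonist ligands of the interleukin 1 receptor, and IL1RN encodes the antagonist that occupies the same receptor without signalling. Receptor engagement leads through MYD88 and the IRAK kinases to NF-κB, which induces chemokines, IL6 and the ligands themselves. CXCL1, CXCL2, CXCL3 and CXCL5 are neutrophil-attracting chemokines that act on CXCR2, LCN2 is a secreted lipocalin that sequesters iron-bearing siderophores, and IL6 is a cytokine that signals through IL6R and the shared subunit IL6ST.

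The genes lie at 4 places in the genome. On GRCh37, IL1A (chr2:113531502-113542070, minus strand), IL1B (chr2:113587328-113594393, minus strand) and IL1RN (chr2:113856892-113891593, plus strand) form part of the interleukin 1 cluster. CXCL1 (chr4:74735110-74737025, plus strand), CXCL5 (chr4:74861359-74864394, minus strand), CXCL3 (chr4:74902306-74904524, minus strand) and CXCL2 (chr4:74962757-74964913, minus strand) lie in the CXC chemokine cluster. IL6 is at chr7:22765503-22771621 and LCN2 at chr9:130911350-130915732, each on the plus strand. The coding sequences of CXCL1, CXCL2 and CXCL3 are 90.7% to 94.4% identical and their transcripts share identical runs of 55 to 97 bases, so that reads may be split uncertainly among the 3 genes. CXCL5 is 59.4% to 61.0% identical to them.

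The 250 bases upstream of the start site are shown for the 6 genes whose promoter window held the NF-κB (κB) consensus, because these letters are what the chemokine genes, IL6 and LCN2 share and the IL-1 genes lack in this window. The sequences are those of RefSeq on GRCh38.p14, written 5′ to 3′ on the strand of the gene, and capitals mark the bases matched by the consensus on either strand. They come from chr4:73869143-73869392 (CXCL1, plus strand), chr4:74099196-74099445 (CXCL2, minus strand), chr4:74038690-74038939 (CXCL3, minus strand), chr4:73998678-73998927 (CXCL5, minus strand), chr7:22726950-22727199 (IL6, plus strand) and chr9:128149203-128149452 (LCN2, plus strand).
CXCL1: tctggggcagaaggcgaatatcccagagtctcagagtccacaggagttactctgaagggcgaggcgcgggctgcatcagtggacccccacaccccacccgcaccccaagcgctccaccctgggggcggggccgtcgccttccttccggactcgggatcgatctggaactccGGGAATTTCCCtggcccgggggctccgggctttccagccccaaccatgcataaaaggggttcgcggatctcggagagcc
CXCL2: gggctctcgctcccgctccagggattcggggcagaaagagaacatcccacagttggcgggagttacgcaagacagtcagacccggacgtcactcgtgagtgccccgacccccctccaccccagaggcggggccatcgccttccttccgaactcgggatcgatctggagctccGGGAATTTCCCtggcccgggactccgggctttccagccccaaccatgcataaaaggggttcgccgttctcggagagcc
CXCL3: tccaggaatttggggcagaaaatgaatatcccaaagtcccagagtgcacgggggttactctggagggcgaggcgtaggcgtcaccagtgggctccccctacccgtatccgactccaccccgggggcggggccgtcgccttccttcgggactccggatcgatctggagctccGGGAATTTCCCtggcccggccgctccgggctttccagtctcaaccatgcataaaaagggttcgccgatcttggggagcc
CXCL5: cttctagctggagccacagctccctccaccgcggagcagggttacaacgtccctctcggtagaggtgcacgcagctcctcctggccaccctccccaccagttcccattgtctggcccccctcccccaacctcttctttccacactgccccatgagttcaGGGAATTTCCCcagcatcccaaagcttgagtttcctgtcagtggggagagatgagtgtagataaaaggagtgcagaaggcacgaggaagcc
IL6: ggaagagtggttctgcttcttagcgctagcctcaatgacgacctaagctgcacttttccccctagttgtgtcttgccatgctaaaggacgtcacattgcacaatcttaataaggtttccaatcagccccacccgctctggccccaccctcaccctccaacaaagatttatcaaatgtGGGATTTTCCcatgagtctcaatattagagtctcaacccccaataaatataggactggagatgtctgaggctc
LCN2: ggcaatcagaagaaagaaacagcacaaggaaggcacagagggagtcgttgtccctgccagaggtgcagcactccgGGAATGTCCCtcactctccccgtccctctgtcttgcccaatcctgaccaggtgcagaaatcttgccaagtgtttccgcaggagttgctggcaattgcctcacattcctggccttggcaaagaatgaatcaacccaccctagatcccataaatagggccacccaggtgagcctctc

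All 4 chemokine genes carried the same match, GGGAATTTCC, which began 79 bases before the start site in CXCL1 and CXCL3, 78 bases before it in CXCL2 and 91 bases before it in CXCL5. A second match on the opposite strand overlapped it in each. IL6 held GGGATTTTCC from base -73, and LCN2 held GGAATGTCCC, a match on the opposite strand, from base -175. In windows from 250 bases before to 50 bases after the start, the consensus was found in 6 of 9 genes and in 11.3% of the 35116 RefSeq promoters searched on both strands. The 9 genes have 12 such windows, because IL1A has 2 and IL1RN 3, and a gene was counted if any of its windows held the motif, whereas the shares of all promoters count each window. The upstream sequences of CXCL1, CXCL2 and CXCL3 were 70.4% to 81.4% identical to one another and 48.9% to 51.1% identical to that of CXCL5, so these matches are not separate observations. The AP-1 motif TGANTCA was found in IL1A, IL1RN and LCN2 and in 7.71% of all promoters. The C/EBP motif TTGCNNAA was found in IL1B, CXCL2, IL6 and LCN2 and in 10.5% of all promoters. The TATA motif TATAAA was found in IL1A and IL1RN, compared with 11.5% of all promoters. These matches describe letters in a window and no factor was measured here.

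Expression is given as log2 CPM, the log2 of the depth-scaled read count (CPM) after 0.5 reads were added to each count. The libraries held 1344098 to 7067336 reads on listed genes, and 3 reads corresponded to 0.452 to 2.18 CPM, so log2 values near or below 1 rest on a few reads. PEA1 had the shallowest libraries, with 1344098 to 1670866 reads. Intervals and floors given below cover counting error only, and a fold against a floor leaves out the counting error of the line that had reads. All 8 markers of serous ovarian epithelium were above 3 summed reads in PEA1, PEA2, PEO1 and PEO4, whereas 2 of 8 were in A2780, where PAX8 had 0 reads, and 4 of 8 in CP70. In PEA1, however, KRT7, MUC16 and WFDC2 had only 7, 8 and 10 summed reads, against 8085, 1161 and 476 in PEA2. In bulk RNA, fewer cells of a type and less RNA per cell cannot be told apart.

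**Figure D1:**
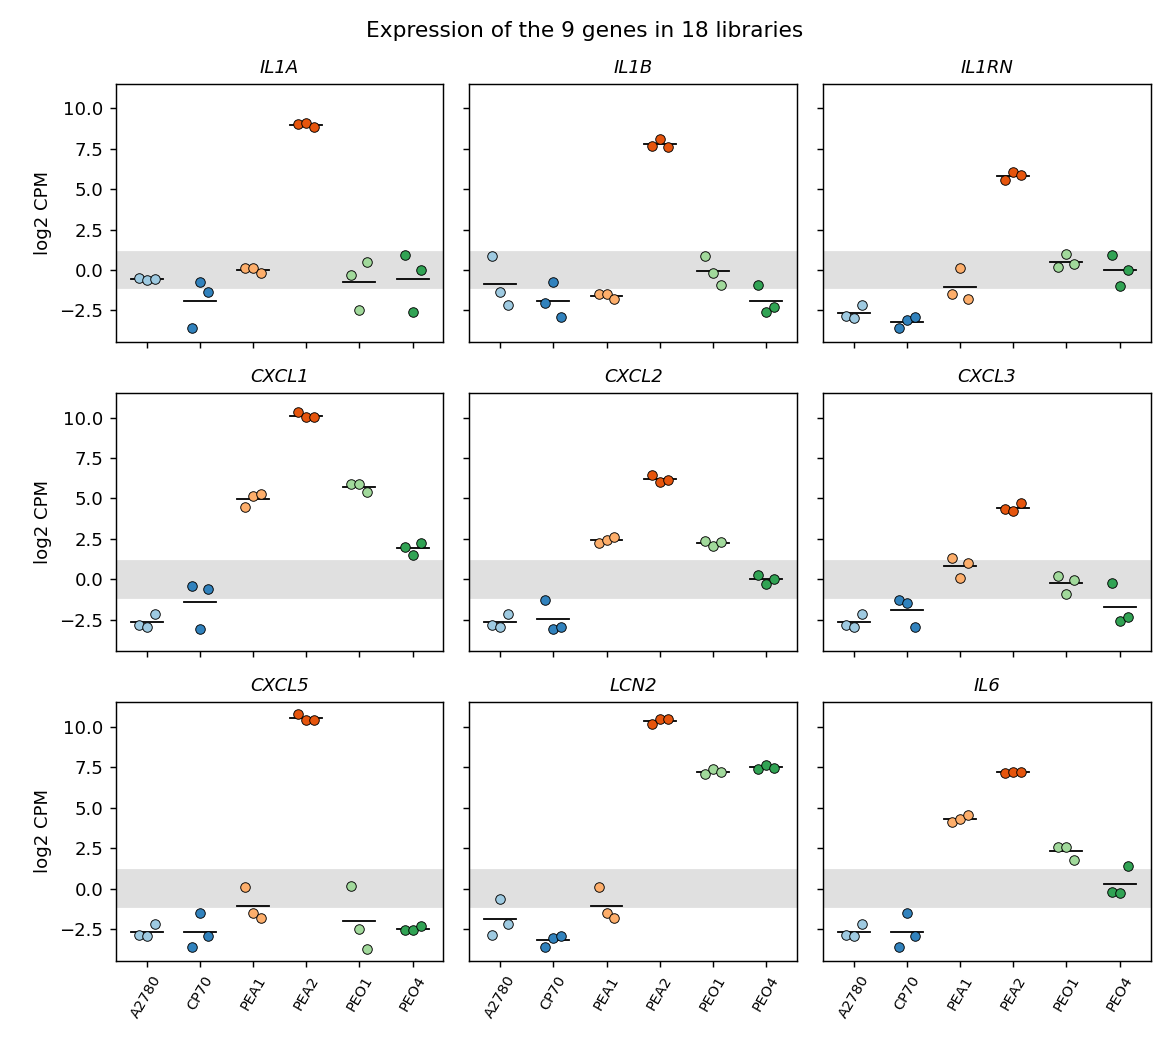
Log2 CPM of each of the 9 genes (vertical axis, 1 panel per gene) in the 18 libraries, grouped by line on the horizontal axis. Points are libraries, horizontal lines are line means, and the grey band spans the level of 3 reads across libraries. The PEA2 libraries are the highest in every panel, and LCN2 is also high in PEO1 and PEO4.

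In PEA2, IL1A stood at log2 CPM values of 9.02, 9.07 and 8.84. In PEA1 its values were 0.12, 0.10 and -0.21, from 1 read in each library. The lines did not overlap, and the pooled CPM of this ligand was 767-fold higher in PEA2 (95% counting interval 262 to 3723). IL1B measured 7.66, 8.09 and 7.60 in PEA2, from 1752 summed reads, and had 0 reads in all PEA1 libraries. Against the floor of 3 reads over the line, its level in PEA2 was at least 350-fold higher. IL1RN, the receptor antagonist, measured 5.56, 6.06 and 5.89 in PEA2, against 1 read over the PEA1 libraries (269-fold, counting interval 48.0 to 10630). Transcripts of the agonists and of their antagonist were thus all measured in PEA2 from 448 to 3839 summed reads, and in PEA1 from 0 to 3.

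Among the chemokines, CXCL5 measured 10.80, 10.43 and 10.45 in PEA2, where it had 11213 summed reads, against 1 read over the PEA1 libraries. Its log2FC of 11.62 was the highest of all 12853 genes in this pair, and the ratio of 6724 has a counting interval of 1207 to 265600. This chemokine was thus present in PEA2 and at the limit of detection in PEA1. CXCL1 measured 10.32, 10.01 and 10.05 in PEA2 and 4.47, 5.17 and 5.28 in PEA1, a 33.9-fold ratio of the pooled CPM (counting interval 28.8 to 40.2). CXCL2 measured 6.46, 5.99 and 6.16 in PEA2 and 2.24, 2.42 and 2.60 in PEA1 (14.1-fold). CXCL3 measured 4.32, 4.24 and 4.72 in PEA2 and 1.35, 0.10 and 1.01 in PEA1 (13.6-fold). Unlike CXCL5, these 3 chemokine genes had reads in every PEA1 library, and no PEA1 library reached the PEA2 range.

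LCN2 measured 10.16, 10.48 and 10.47 in PEA2, from 10218 summed reads, against 1 read over the PEA1 libraries. Its ratio of 6127 has a counting interval of 1099 to 242000, and its log2FC of 11.43 was second in the table. The cytokine IL6 measured 7.16, 7.23 and 7.21 in PEA2 and 4.09, 4.29 and 4.58 in PEA1, so that it was well detected in both lines. Its 7.34-fold ratio was the smallest of the 9 genes. All 9 genes had a log2FC above 2, from 2.88 for IL6 to 11.62 for CXCL5 with a median of 6.89, compared with 7.95% of all genes, and this follows from how they were chosen. By rank of log2FC among 12853 genes, IL1B was 15th, IL1A 22nd, IL1RN 88th, CXCL1 234th, CXCL2 409th, CXCL3 439th and IL6 607th.

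Per kilobase of the canonical transcript, the highest level in PEA2 was that of LCN2, with an RPKM of 1654, followed by CXCL1 with 939.5 and CXCL5 with 610.8. IL1A reached an RPKM of 253, IL1B 154 and IL6 131. The lowest RPKM values were those of CXCL2 with 64.4, IL1RN with 34.9 and CXCL3 with 19.6. The agonist transcripts were thus each at a higher level per length than that of the antagonist in this line, and CXCL3, whose reads may be shared with its near-identical relatives, had the lowest level.

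Markers of other cell types were measured beside these values. Of 16 leukocyte markers, 2 were listed in the table, and both differed between these lines. PTPRC (CD45) had 47, 70 and 46 reads in the PEA2 libraries and 0 in all PEA1 libraries. S100A9 had 61, 93 and 68 reads in PEA2 and 0 in PEA1, and it also had 23 to 86 reads per library in PEO1. The summed level of the leukocyte list was 46.9 to 57.6 CPM in PEA2 and 0 CPM in PEA1, and the other 14 markers were not in the table and were not analysed here. CDH5, the only endothelial marker of 5 in the table, had 66 to 88 reads in PEA2 and 0 in PEA1. The part of these transcripts in the levels of the 9 genes was not tested.

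The PEO pair showed which of these genes also differed in lines that the selection did not use. CXCL1 measured 5.90, 5.90 and 5.42 in PEO1 and 1.99, 1.50 and 2.22 in PEO4. The lines did not overlap, and CXCL1 fell by 3.83 on the log2 scale (SE 0.48, FDR = 2.36e-06, limma with Benjamini-Hochberg adjustment over 12853 genes), a 14.1-fold lower pooled CPM in the resistant line. CXCL2 measured 2.34, 2.04 and 2.34 in PEO1 and 0.28, -0.26 and 0.02 in PEO4. It fell by 2.23 (SE 0.43, FDR = 0.000273 by limma), with lines that did not overlap and 59 against 7 summed reads. These were the 2 of 9 genes that passed |log2FC| above 2 and an FDR below 0.05, and both were lower in PEO4, compared with 3.37% of all genes called lower and 6.22% called in either direction. The direction of the difference in log2 CPM was opposite to that in the PEA pair, where both genes were higher in the resistant line. Reads may be split uncertainly between these 2 similar genes, so the 2 calls may not be separate observations. The leukocyte marker S100A9 was also lower in PEO4, with 155 against 24 summed reads (log2FC -2.13, FDR = 0.000916 by limma), while PTPRC had 0 reads in both PEO lines, and the part of S100A9 expression in the chemokine values was not tested.

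IL6 measured 2.59, 2.56 and 1.76 in PEO1 and -0.21, -0.26 and 1.40 in PEO4. Its log2FC of -1.996 (SE 0.50, FDR = 0.00311 by limma) lay just short of the fold threshold, and the lines did not overlap. With quantile normalization it passed (-2.47), and 3 of 9 genes were then called. IL1B measured 0.84, -0.16 and -0.92 in PEO1 and -0.95, -2.58 and -2.30 in PEO4, from 10 against 1 summed reads. Its log2FC was -1.86 (SE 0.68, FDR = 0.0340 by limma), and the ratio of PEO1 over PEO4 of 6.68 has a counting interval of 0.952 to 290. With no threshold on the fold, 4 of 9 genes passed the FDR of 0.05 in this pair (CXCL1, CXCL2, IL6 and IL1B), compared with 41.5% of all genes.

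CXCL3 measured 0.19, -0.90 and -0.03 in PEO1 and -0.21, -2.58 and -2.30 in PEO4, with overlapping lines and a log2FC of -1.45 (SE 0.59, FDR = 0.0546 by limma). IL1A had 11 summed reads in PEO1 and 7 in PEO4 and IL1RN had 16 and 8, and neither gene passed the test (log2FC 0.21 and -0.53, FDR = 0.864 and 0.461 by limma). CXCL5 had 3 reads over the PEO1 libraries and 0 over those of PEO4, so no fold is given. For IL1A, IL1RN and CXCL5 no difference was detectable at this depth. Over the 9 genes the median log2FC in this pair was -1.45, compared with -0.02 over all genes. That median is the value of CXCL3, which rests on 10 and 2 summed reads. With 2 reads added to each count, the log2FC of CXCL3 was -0.498. The median thus depends on the reads added and is no evidence of a fall shared by the 9 genes.

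LCN2 was the gene of the 9 that stood high in both PEO lines. It measured 7.12, 7.38 and 7.24 in PEO1 and 7.37, 7.66 and 7.45 in PEO4. The ranges overlapped, and the log2FC of 0.25 (SE 0.46, FDR = 0.706 by limma) did not pass the test, with 1890 and 1516 summed reads behind the lines. Per kilobase, LCN2 reached an RPKM of 184.5 in PEO1 and 221 in PEO4, against 43.1 and 3.06 for CXCL1. Detection of LCN2 therefore did not go with that of CXCL5 or of the IL-1 ligands in these lines.

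Single libraries moved some of these calls. Without PEO1 replicate 3, the deepest library, 4 of 9 genes were called, with IL1B at a log2FC of -2.29 and IL6 at -2.27 beside CXCL1 and CXCL2. Without PEO4 replicate 1, 4 were called as well, with IL1B at -2.36 and CXCL3 at -2.20, and without PEO4 replicate 3 IL6 was at -2.54. CXCL2 lost its call when 2 reads rather than 0.5 were added to each count (log2FC -1.73).

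In the A2780 pair these genes were near or below the detection limit. IL1RN, CXCL2, CXCL3, CXCL5, LCN2 and IL6 each had at most 3 summed reads in both A2780 and CP70, and no fold is given for them. IL1A had 5 reads over the A2780 libraries and 3 over those of CP70, and IL1B had 7 and 3, with log2FC values of -1.33 and -1.01 that did not pass the test (FDR = 0.205 and 0.260 by limma). CXCL1 had 0 reads in all A2780 libraries and 4, 0 and 2 in CP70. Against a floor of 3 reads in A2780, its 6 summed reads in CP70 gave a ratio of 1.37. This ratio leaves out the counting error of those reads, so it shows no rise by itself. The log2FC of CXCL1 was 1.28 (SE 0.48, FDR = 0.0415 by limma), with overlapping lines.

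No gene of the 9 passed both thresholds by limma in this pair (0 of 9), compared with 9.06% of all genes, and voom weights also gave 0. Because 6 of the 9 had at most 3 summed reads in both lines, they could hardly be called. The 0 is therefore no result about these genes. At an unadjusted p below 0.05 there were 2 (CXCL1 and LCN2), and the same number passed the FDR alone, compared with 39.9% of all genes. Both rest on the detection limit, since A2780 and CP70 had 0 and 6 summed reads of CXCL1 and 2 and 0 of LCN2. Without CP70 replicate 2, which had 0 reads of CXCL1, that gene was called with a log2FC of 2.13.

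**Figure D2:**
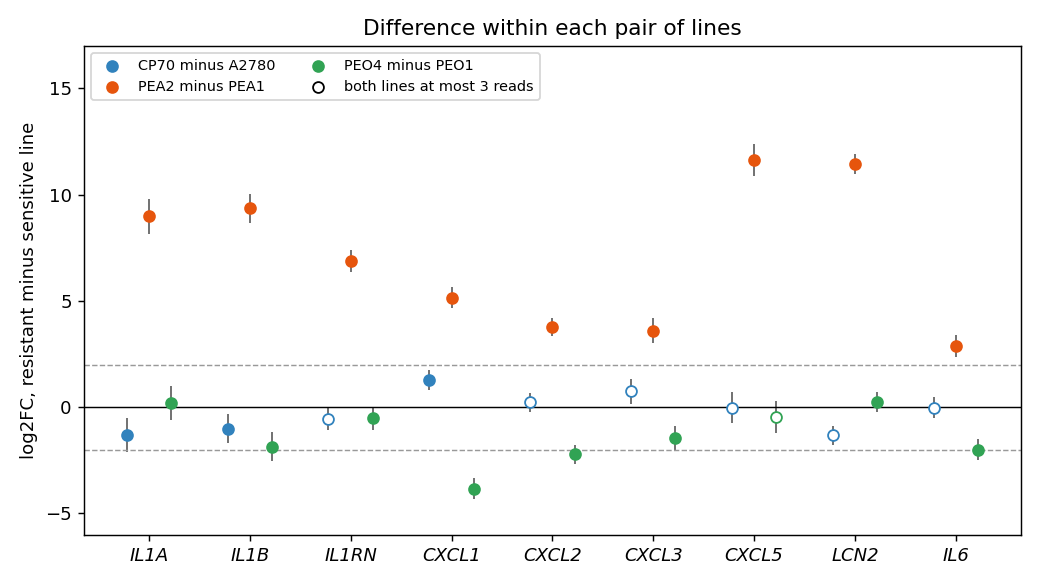
Log2FC of each gene (vertical axis, resistant minus sensitive line, with the standard error of the fit) in the 3 pairs, marked by colour. Open symbols mark genes with at most 3 summed reads in both lines, and dashed lines mark a log2FC of 2 in either direction. The PEA values, which chose the genes, lie between 2.88 and 11.62, and CXCL1 and CXCL2 lie below -2 in the PEO pair.

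The effect in the A2780 pair minus that in the PEO pair was tested in the same fit. It passed an FDR of 0.05 for CXCL1 (5.11, SE 0.68, FDR = 4.02e-06 by limma), CXCL2 (2.45, FDR = 0.00225), CXCL3 (2.20, FDR = 0.0353) and IL6 (1.97, FDR = 0.0274), which makes 4 of 9, compared with 47.5% of all genes. Reads in the A2780 pair were at the floor for CXCL2, CXCL3 and IL6, so for these 3 genes the difference is between the PEO values and a pair in which no level could be measured. Without A2780 replicate 2, CP70 replicate 2 or PEO1 replicate 1, the number was 2, and the differences for CXCL1 and CXCL2 kept passing.

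Across all 6 lines, PEA2 had the highest level of each of the 9 genes, and no library of another line reached its range. CXCL1 followed the order PEA2, PEO1, PEA1, PEO4, CP70 and A2780, in which only the ranges of CP70 and A2780 overlapped. CXCL2 followed the order PEA2, PEA1, PEO1, PEO4, CP70 and A2780, with overlap between PEA1 and PEO1 and between CP70 and A2780. IL6 was ordered PEA2, PEA1, PEO1 and PEO4, with CP70 and A2780 at the floor. LCN2 was ordered PEA2, PEO4 and PEO1, of which PEO4 and PEO1 had overlapping ranges, and the remaining lines had at most 2 summed reads. For IL1RN, the lines PEO1, PEO4 and PEA1 overlapped in turn, with A2780 and CP70 at 0 reads. For IL1A, IL1B, CXCL3 and CXCL5 the neighbouring lines below PEA2 overlapped throughout. Over the 18 libraries, Pearson's r between the log2 values of these genes ran from 0.577 (CXCL3 with LCN2) to 0.988 (CXCL1 with CXCL2). These values share the libraries and their depth, and 3 libraries per line are not independent points. The genes were chosen as high in PEA2 and its libraries are among the 18, so positive values of r follow in part from that choice. No r without PEA2 was computed. The coding sequences of CXCL1 and CXCL2 are 93.5% identical, and the part of uncertainly split reads in their r was not tested.

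Among the 10 other genes with the most similar pattern, by Pearson's r over the 18 libraries with the mean of the z-scaled members, were ITCH (0.983), SLC15A1 (0.972), TSPAN13 (0.969), KDM7A, PDIA4, PGM5, GNB1, TMOD1 and TLDC1 (0.959). Their mean log2 CPM in PEA2 and PEA1 differed in scale. SLC15A1 measured 6.25 and -1.05, TMOD1 6.87 and -1.58, and ITCH 8.93 and 7.66, so a high r was reached by genes with much smaller differences as well. The mean of the members is highest in PEA2 through their selection, so this ranking favours genes that are also high there.

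The other genes of the pathway came from lists of 127 genes written for the IL-1, CXC chemokine, IL-6 and NF-κB systems, of which 76 were in the table. In the PEA pair, 21 of the 76 were called higher (27.6%, compared with 7.93% of all genes) and 0 were called lower (compared with 6.15%). The median log2FC there was 0.75 against 0.01 for all genes. In the PEO pair, 1 was called higher (1.32%, compared with 2.86%) and 7 were called lower (9.21%, compared with 3.37%), with a median of -0.21 against -0.02. In the A2780 pair, 10 were called higher (13.2%, compared with 5.66%) and 4 were called lower (5.26%, compared with 3.40%), with a median of 0.23 against -0.02. The lists include genes known from earlier results of these data, so these counts are descriptions.

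**Figure D3:**
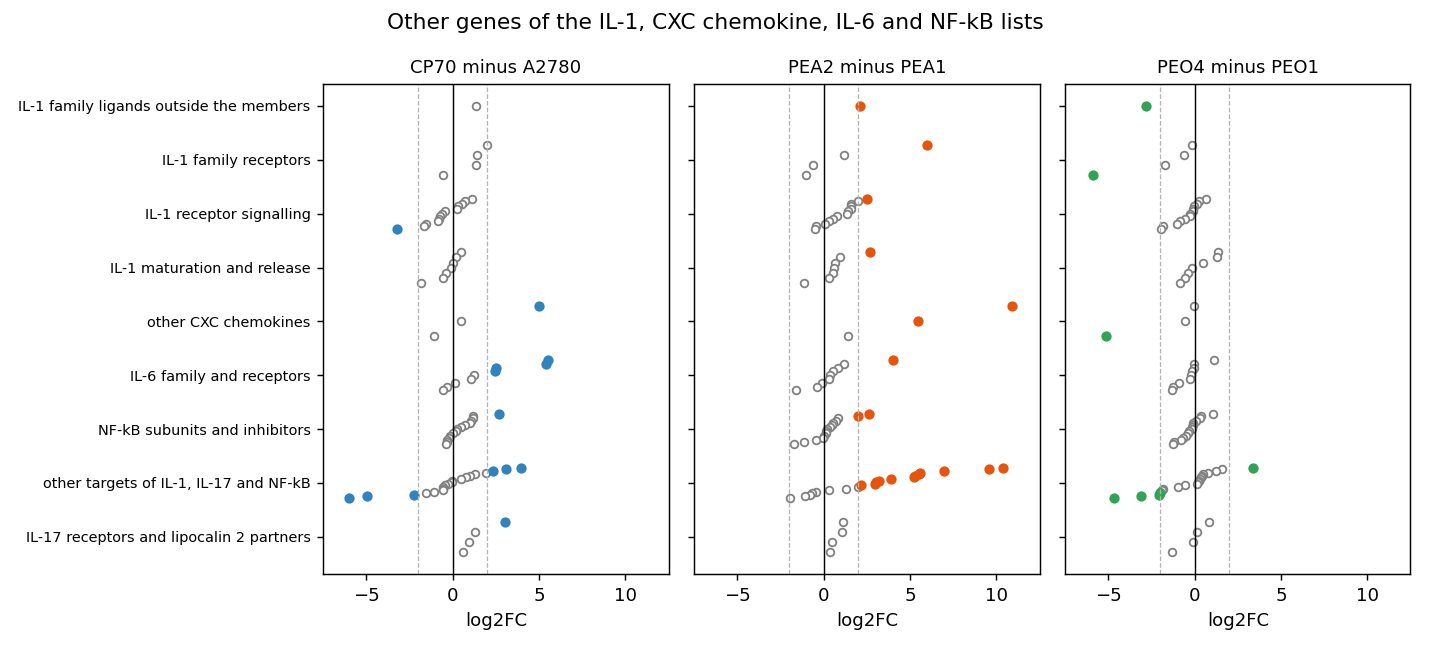
Log2FC (horizontal axis, resistant minus sensitive line) of the 76 pathway genes other than the 9 members, by list (vertical axis) and pair (panel). Filled points passed |log2FC| above 2 and an FDR below 0.05, and dashed lines mark a log2FC of 2 in either direction. In the PEA panel 21 points are filled, all on the higher side.

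Of 4 receptors of the IL-1 family in the table, 1 rose in the PEA pair, 1 fell in the PEO pair and none was called in the A2780 pair. IL1R1, the signalling receptor, had a log2FC of -0.62 in the PEA pair (FDR = 0.0255 by limma), at mean log2 CPM values of 5.93 in PEA1 and 5.31 in PEA2, and of -1.70 in the PEO pair (FDR = 5.54e-06), both within the fold threshold, although the latter passed it with quantile normalization (-2.51). IL1RAP, its co-receptor, had log2FC values of 1.19 and -0.16 in these pairs and was not called. In the A2780 pair IL1R1 and IL1RAP had log2FC values of 1.41 and 1.97, and IL1RAP was called without A2780 replicate 2 (2.59) or CP70 replicate 3 (2.07). Few reads lay behind these values, with 10 in A2780 against 42 in CP70 for IL1R1 and 2 against 14 for IL1RAP. With quantile normalization the log2FC of IL1R1 in this pair was 0.48. IL1R2, the decoy receptor, measured 5.30, 5.05 and 5.50 in PEO1 and 0.28, -2.58 and 0.51 in PEO4, and it fell by 5.88 (SE 0.61, FDR = 1.71e-07 by limma). In the PEA pair the same receptor had a log2FC of -1.06 (FDR = 0.137) and was not called. SIGIRR, a negative regulator of IL-1 receptor signalling, had 0 reads in PEA1 and 158 in PEA2 and rose by at least 31.6-fold (FDR = 2.54e-13 by limma). Among 13 genes of the signalling chain below the receptor, only IRAK2, a kinase of the receptor complex, was called in the PEA pair (log2FC 2.50). The median log2FC of the 13 was 1.325 there, compared with 0.01 for all genes. IRAK3 (1.97), TOLLIP (1.60), MYD88 (1.58), MAP3K7 (1.58) and TAB3 (1.39) were higher within the fold threshold at an FDR below 0.05 by limma, and TAB2 (-0.50) and TRAF6 (-0.46) were lower. Only IRAK3, an inhibitory member of the family, was called in the A2780 pair (-3.25, and -1.82 and no longer called with 2 reads added). None of the 13 was called in the PEO pair. IL18, a ligand of the same family, rose by a log2FC of 2.09 in the PEA pair and fell by 2.83 in the PEO pair. Its call in the PEA pair was lost without PEA1 replicate 1 (1.94) or PEA2 replicate 2 (1.92) or with 2 reads added (1.99). Of 7 measured genes for maturation and release of the ligands, CAPN1, a protease that can cleave pro-IL-1α, rose in the PEA pair (2.71, FDR = 3.69e-14 by limma) and none of the other 6 was called in any pair.

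Among the other CXC chemokines, CXCL8, the best known ligand of CXCR2, measured 9.62, 9.20 and 9.15 in PEA2 and had 0 reads in all PEA1 libraries. It rose by at least 952-fold (FDR = 1.45e-11 by limma). In PEO1 it measured 4.64, 4.46 and 4.87, and in PEO4 1.17, -2.58 and 0.02, so that it fell by 5.12 (SE 0.63, FDR = 1.70e-06). CXCL8 thus followed the direction of CXCL1 and CXCL2 in both pairs. CXCL16, a transmembrane chemokine, rose in the PEA pair (5.47) and in the A2780 pair (4.98). CXCL6 had a log2FC of 1.38 in the PEA pair and was not called in any. No receptor of the CXC family was in the table (0 of 8), CXCR2 included, so the receptor side was not analysed here.

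In the IL-6 family, LIF rose in the PEA pair (4.03, FDR = 1.34e-13 by limma). IL6ST, the shared signal transducer, had log2FC values of 0.83 (PEA) and -0.24 (PEO) and was not called. IL6R was not called in either of these pairs (0.51 and 1.13) but rose in the A2780 pair (5.43, FDR = 7.49e-09), as did OSMR, the oncostatin M receptor (5.53). IL6R had 2 and OSMR 4 summed reads in A2780, so the size of these changes depends on the reads added. CLCF1 and LIFR rose there too (2.52 and 2.43), with 7 and 6 summed reads in A2780, and lost the call with 2 reads added (1.94 and 1.56) and with quantile normalization (1.25 and 1.57). The call of LIFR was also lost without A2780 replicate 1 (1.42). IL6ST was not called in the A2780 pair (1.04), and IL6 itself was at the floor there.

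Of 15 NF-κB subunits and inhibitors, 2 rose in the PEA pair. NFKBIZ, an inducible co-activator of NF-κB targets, rose by a log2FC of 2.62 (FDR = 3.63e-08 by limma). TNFAIP3, a feedback inhibitor, lay at the threshold with 2.00 and lost its call without any of PEA1 replicates 1 and 2 and PEA2 replicates 1 and 2 (1.85 to 1.98), and also with quantile normalization, voom weights or 2 reads added (1.90, 1.97 and 1.96). RELA, the main activating subunit, had log2FC values of -0.03 (PEA) and -0.41 (PEO) and was not called. No gene of this list was called in the PEO pair, and BCL3, an atypical inhibitor family member, rose in the A2780 pair (2.65, or 1.95 and not called with quantile normalization).

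Other targets of IL-1, IL-17 and NF-κB held the largest number of calls. In the PEA pair 12 of 20 were called higher and 0 were called lower. CSF1 (log2FC -1.96, FDR = 2.11e-06 by limma) and TNFAIP2 (1.99, FDR = 4.05e-07) lay just within the fold threshold there. PI3, which encodes the protease inhibitor elafin, and CCL20, a chemokine, had 0 reads in PEA1 and rose by at least 689.6-fold and 389.6-fold. The lowest of the 12 were SOD2, the mitochondrial superoxide dismutase, with a log2FC of 2.97 and PTX3, a pentraxin, with 2.16. In the PEO pair 4 of 20 fell, led by TNF (-4.70, from 120 to 2 summed reads) and CSF1 (-3.10). The other members of that count, BIRC3 (-2.01) and PTX3 (-2.05), lay at the threshold, and each lost its call in 4 of the alternatives, among them without PEO1 replicate 1 (-1.90 for both) or PEO4 replicate 1 (-1.71 and -1.64), and PTX3 also without PEO1 replicate 3 (-1.88). MMP3 rose there, from 0 to 10 summed reads (4.99-fold against a floor of 3 reads), and lost the call with 2 reads added (1.86) or quantile normalization (1.54). In the A2780 pair CSF1 and BIRC3, an apoptosis inhibitor, rose (3.97 and 3.09, the latter 1.99 and not called with quantile normalization), and SAA1, an acute-phase protein, and PTX3 fell (-6.03 and -4.98). SAA1 went from 221 to 5 summed reads. PTX3 went from 36 to 0, and its level in CP70 was 17.5-fold lower against a floor of 3 reads. The same list thus held calls in different directions in the 3 pairs, and CSF1 was called in opposite directions in the PEO and A2780 pairs. In the list of IL-17 receptors and LCN2 partners, IL17RD rose in the A2780 pair (3.03), and none of the 4 genes in the table was called in the PEA or PEO pair. These were IL17RA, IL17RC, IL17RD and TRAF3IP2. The LCN2 partners of the list, SLC22A17, LRP2, MMP9 and BDH2, were not in the table and were not measured here.

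The other genes of the table within 500 kb of the members were counted for each locus, with no test of a difference between loci and beside 7.93% of all genes called higher and 6.15% called lower in the PEA pair. Of 11 other genes in the table around the IL-1 cluster, 0 were called in any pair by limma, and their median log2FC in the PEA pair was -0.06. CKAP2L, the nearest of them to IL1A at 19.9 kb, had a log2FC of 0.64 there. Around the CXC cluster, 3 of 5 were called higher in the PEA pair (CXCL8, AREG and EREG). AREG, which encodes the EGF receptor ligand amphiregulin, measured 7.30, 7.20 and 7.16 in PEA2 against -1.46, -1.49 and 1.37 in PEA1, and rose by a log2FC of 7.75 (FDR = 1.07e-08 by limma). In the PEO pair it fell by 3.30 (FDR = 0.000769). EREG, which encodes epiregulin, rose in both pairs (4.39 and 3.46), whereas CXCL8 and AREG fell in the latter. MTHFD2L, at 244.8 kb from CXCL1 and next to CXCL2 at 229.9 kb, had a log2FC of -0.25 in the PEA pair. In the PEO pair MTHFD2L had -1.68 (FDR = 6.09e-05 by limma), within the fold threshold, and it was not called in any pair. Of 24 genes around LCN2, 0 were called in any pair, and around IL6, 1 of 7 was called higher in the PEA pair. The calls near the CXC cluster thus included genes that are not chemokines.

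**Figure D4:**
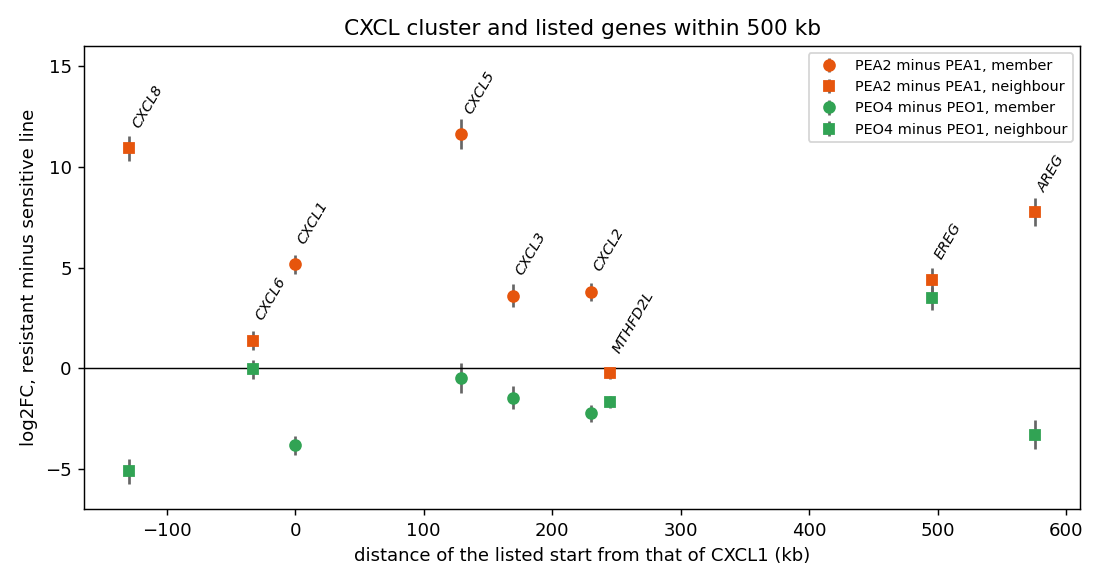
Log2FC (vertical axis, resistant minus sensitive line, with the standard error of the fit) of the CXC chemokine members and of the other genes of the table within 500 kb, against the distance of their start from that of CXCL1 in kb. Circles are members and squares are neighbours, coloured by pair. CXCL8, CXCL1 and AREG lie above 5 in the PEA pair and below -3 in the PEO pair, while EREG lies above 3 in both.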

How the data were processed

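RNA depleted of ribosomal RNA was sequenced from 6 ovarian cancer cell lines with 3 replicates per line. The authors assigned reads to known genes of hg19 with featureCounts, normalized them with limma and deposited, for 12853 genes, log2 CPM values in which every count had been raised by 0.5 reads. The submitters' processing notes also name Bowtie2, and no version is given. The filter that left these genes is not given in the sources used here. All columns were used, and ATAC-seq and Pt-exo-seq were not analysed here.

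Tests on these values used limma 3.58.1 (R 4.3.3), with a variance trend and a mean for each of the 6 lines in 1 fit of 18 libraries. A gene was called where |log2FC| exceeded 2 with an FDR below 0.05, adjusted by Benjamini-Hochberg across 12853 genes, as in the study. Whole reads were recovered from 100% of the values (tolerance 0.02) and gave depths, pooled CPM and exact binomial 95% counting intervals. A fold against a line with 0 reads was taken against 3 reads over that line. It leaves out the counting error of the other line. Libraries of the same line varied beyond sampling noise (chi-square per degree of freedom 1.74 to 13.5). The fit was also run on simulated data in which only genes with a mean log2 above 2 were changed. That run does not cover genes near the floor.

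The members, the gene lists and the tests were chosen with earlier results of these data known. Named genes were every member, the 2 highest and 2 lowest called genes of each pathway list in each pair, IL1R1, IL1RAP, IL1R2, CXCL8, CXCL6, IL6ST, IL6R, NFKBIZ and RELA whatever their values, and the 10 genes most like the members, among genes with a line mean above log2 2. CXCR2 and MMP9 were also on this list and were not in the table. The neighbouring genes AREG, EREG, MTHFD2L and CKAP2L were chosen after their values were seen. A gene that this rule names is not reported here. CXCL8 is listed under its older symbol. Marker lists covered serous epithelium, leukocytes, fibroblasts, mesothelium and endothelium. Gene positions and canonical transcripts came from GENCODE on GRCh37, and promoters from RefSeq on GRCh38.p14. Motifs and sequence identity were computed in Python 3.11.15 with Biopython 1.88. Alternatives were each pair fitted alone, a filter on mean log2 above 0, quantile normalization, the replicate block, no variance trend, other thresholds, 2 reads added, voom weights and leaving out each library.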

Additional observations from a re-analysis of the deposited data

Results flagged for a closer look

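For 4 genes the difference between the resistant and the sensitive line was itself different in the A2780 and PEO pairs, by the test of that difference in the limma fit. For CXCL1 the effect in the A2780 pair minus that in the PEO pair was 5.11 on the log2 scale, for CXCL2 it was 2.45, for CXCL3 2.20 and for IL6 1.97, with an FDR of 4.02e-06, 0.00225, 0.0353 and 0.0274. Of all genes 47.5% passed the same test, so 4 of 9 is close to the background and is no result about these genes as a group. All 3 PEO4 libraries lay below all 3 PEO1 libraries for CXCL1. In the A2780 pair CXCL1 had 0 and 6 summed reads and the other 3 genes at most 3 per line, so the A2780 side of each difference rests on the detection limit. The differences of CXCL3 and IL6 lost their call in 10 and 9 of the alternatives tried, and their FDR ranged up to 0.428 and 0.0932.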

How the results depend on the processing

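Of the 9 members, the number called in the A2780 pair was 0 and became 2 at |log2FC| above 1 or with the FDR alone, and 0 to 1 when each library was left out. In the PEO pair it was 2 and became 4 at |log2FC| above 1 or with the FDR alone, 1 with 2 reads added, 3 with quantile normalization, and 2 to 4 when each library was left out (4 without PEO1 replicate 3 or PEO4 replicate 1). For the difference of the pairs it was 4, and 2 to 4 when each library was left out. Of the 76 pathway genes, those called in the A2780, PEA and PEO pairs were 14, 21 and 8. They became 31, 38 and 23 at |log2FC| above 1, 45, 52 and 36 with the FDR alone, and 9 and 5 in the A2780 and PEO pairs with 2 reads added. Leaving out each library gave 13 to 16, 20 to 22 and 6 to 10. The log2FC of IL1A in the PEO pair, which was not called, turned from 0.21 to -0.66 without PEO1 replicate 2, -0.53 without PEO4 replicate 1 and -0.07 without PEO4 replicate 3, within a range of -0.66 to 1.23 over the libraries left out. These values rest on 0 to 9 reads per library. The filter on mean log2 above 0 removed 3 of 9 members (IL1RN, CXCL3 and CXCL5), compared with 355 of the 12853 genes. The number of members with a log2FC above 2 in the PEA pair was then 6. With the replicate numbers entered as a block in the fit, the counts stayed at 0, 2 and 4 for the members and at 14, 21 and 8 for the pathway genes. Deviations of same-numbered libraries correlated between -0.184 and 0.220, so the numbers were not taken to pair the samples. Members with 0 to 10 reads in a line have folds that depend on the reads added.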

Other observations

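The remaining marker lists described the lines as follows. The summed level of 6 fibroblast markers was 366 to 449 CPM in PEA1, nearly all of it COL1A1 (1778 summed reads), and 3.45 to 6.40 CPM in PEA2, where COL1A1 had 27 reads. It was 512 to 724 CPM in A2780, 899 to 1040 CPM in CP70, 154 to 174 CPM in PEO1 and 229 to 234 CPM in PEO4. COL3A1, DCN and LUM had 0 reads in both PEA lines. The summed level of 4 mesothelial markers was 147.5 to 178 CPM in PEA1 and 279.5 to 339 CPM in PEA2, and that of 8 serous epithelial markers was 429 to 587 CPM in PEA1 and 2888 to 3241 CPM in PEA2. These sums do not describe every gene of a list. LRRN4 held most of the mesothelial reads (706 in PEA1, 1751 in PEA2), and UPK3B had 6 and 2. Mean log2 CPM in PEA1 and PEA2 was 8.35 and 8.33 for PAX8 and 2.64 and 2.91 for WT1. EPCAM, KRT7, KRT8, KRT18, MUC16 and WFDC2 had higher means in PEA2.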
